A study of Homo sapiens with 6 samples.

Results

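Protein kinase C (PKC) is a family of kinases that phosphorylate serine and threonine residues. The classical isoforms are switched on by calcium together with the lipid messenger diacylglycerol, the nPKC isoforms by diacylglycerol without calcium, and the atypical isoforms by neither. Phorbol esters such as phorbol 12-myristate 13-acetate (PMA) take the place of diacylglycerol at the C1 domains of the classical and nPKC isoforms, and long exposure is known to deplete these proteins from cells. The chromatin at 8 PKC genes was followed: the classical PRKCA and PRKCB, the nPKC PRKCD, PRKCE, PRKCH and PRKCQ, and the atypical PRKCI and PRKCZ. A site was counted with a gene when it overlapped the gene body extended by 50 kb on each side, which gave 381 of the 181135 sites that the authors listed.

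The libraries were ATAC-seq libraries of wild-type K562, a human chronic myelogenous leukaemia line that turns towards a megakaryocyte-like state under PMA. ATAC-seq uses a transposase to cut open chromatin, so that reads pile up where DNA is accessible. Cells had been treated with 25 nM PMA for 0, 6 or 72 h, with 2 libraries at each time and medium changes during the treatment. All groups come from this single line, and the labels do not say whether the 2 libraries of a time came from separate cultures, so p-values measure only the spread between these libraries, which may be technical.

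PRKCZ had 37 sites over a gene body of 137 kb, PRKCA 79 over 508 kb, PRKCB 73 over 385 kb, PRKCE 79 over 537 kb and PRKCH 58 over 364 kb. PRKCQ had 27 sites over 187 kb, PRKCD 20 over 31.5 kb and PRKCI 8 over 83.6 kb. Of the 381 sites, 371 had enough counts to be tested, and the 10 that did not lay at PRKCA (1), PRKCB (3), PRKCE (3) and PRKCH (3). The windows also reach into neighbours: 25 sites lay inside another protein-coding gene, 11 of them in the PRKCZ window and 8 in the PRKCD window. The window around PRKCQ held no site in another gene.

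Counts in listed sites ran from 12258890 in 6 h replicate 1 to 35548737 in 72 h replicate 2, and replicates differed by more than sampling noise (chi-square per degree of freedom 3.54 to 5.53). The TMM scaling of edgeR was used for all values below, and levels are CPM, counts scaled to library size, on that scale. The 6 h and 72 h comparisons share the 0 h libraries. The choice of scale matters in these libraries, since over all tested sites the median change from 0 h to 72 h was 0.29 on the log2 scale with TMM and ran from −0.02 to 1.26 under the other scalings tried. One of these took TMM factors only from sites peaked in every library (shared-peak factors). Of 7 erythroid markers that K562 should carry, GATA1, TAL1 and GFI1B had an accessible site at their start, at mean levels of 7.08, 37.7 and 19.4 CPM. All 3 were called lower at 72 h (−1.41, −1.58 and −1.49). Of 11990 start sites of protein-coding genes 80.8% were called lower then and 7.01% higher, the median being −1.29. With shared-peak factors 2 of the 3 markers were called lower. The T cell gene CD3D (8.53 CPM), the B cell gene CD79A (8.31 CPM) and the epithelial gene KRT8 (28.9 CPM) had an accessible start site too, so an accessible start alone did not set cell types apart. KRT8 was called higher at 72 h (0.57) and the monocyte markers had 0 of 2 starts with a site, and the part of such shifts in the results was not tested. In bulk libraries a smaller share of cells with an open site and less opening per cell cannot be told apart.

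Summed over its whole window, PRKCE gained accessibility at both times, PRKCA at 6 h, and PRKCH by 72 h. PRKCE, an nPKC isoform gene, rose from 179 and 192 CPM at 0 h to 272 and 288 at 6 h, then 369 and 371 at 72 h. The 3 times did not overlap, and each step was up. Against 0 h the log2 fold change was 0.59 ± 0.09 (SE) at 6 h (adjusted p = 4.6e-05, edgeR's quasi-likelihood test over 19311 gene windows, Benjamini-Hochberg) and 0.99 ± 0.09 at 72 h (adjusted p = 7.5e-09). Of all gene windows, 14.7% were called higher and 47.4% lower at 6 h, and 15.8% and 71.3% at 72 h, so on the TMM scale more windows fell than rose. With shared-peak factors 10009 windows were called higher and 3562 lower at 72 h, and with loess offsets 6867 and 7126. The PRKCE window stood above 92.3% of all gene windows in its change at 72 h.

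PRKCA, a classical isoform gene, stood at 225 and 215 CPM at 0 h, 337 and 354 at 6 h, then 258 and 250 at 72 h. Its 6 h libraries were above all others, and its 72 h libraries lay between. The log2 fold change was 0.65 ± 0.09 at 6 h and 0.21 ± 0.09 at 72 h (edgeR adjusted p = 1.6e-05 and 0.034). Relative to 6 h it fell by 0.44 at 72 h, where 12.7% of all windows were called higher and 68.0% lower and the median window fell by 0.51. That later fall was thus near the median of all genes, and its sign turned under loess offsets (0.29), shared-peak factors (0.23) and DESeq2 (0.06). The 72 h rise over 0 h was lost without any 1 of the 4 libraries compared, with log2 fold changes of 0.17 to 0.23 and adjusted p of 0.056 to 0.18, and with RLE scaling (0.03).

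PRKCH, an nPKC isoform gene, rose from 107 and 94.0 CPM at 0 h to 132 and 116 at 6 h, then 149 and 141 at 72 h. No 6 h or 72 h library fell into the range of the 0 h libraries. The log2 fold change was 0.30 ± 0.09 at 6 h and 0.53 ± 0.09 at 72 h (edgeR adjusted p = 0.011 and 3.4e-05). The 6 h call was lost without 0 h replicate 2 (0.21) and without 6 h replicate 1 (0.21), and the 6 h value was 0.13 over the gene body alone and −0.01 with 5 kb on each side. The window stood above 87.6% of gene windows at 72 h.

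The other 5 windows did not rise on the TMM scale. PRKCB, the other classical isoform gene, read 272 and 282 CPM at 0 h, 244 and 298 at 6 h, then 244 and 239 at 72 h, with log2 fold changes of −0.03 and −0.20 that did not pass the test (adjusted p = 0.82 and 0.066). Other scalings called the PRKCB window at 72 h in opposite directions, with −0.38 under RLE and 0.30, 0.81 and 0.77 under total counts, loess offsets and shared-peak factors. The 6 h replicates of PRKCB spanned more than the whole difference between the times. PRKCD read 106 and 116 CPM at 0 h, 96.5 and 111 at 6 h, then 91.0 and 99.6 at 72 h, and its change at 72 h was −0.22 ± 0.09 (adjusted p = 0.032), a call lost without 0 h replicate 2 (−0.16) and without 72 h replicate 1 (−0.17), and turned to 0.20 over the gene body alone. PRKCQ read 111 and 127 CPM at 0 h, 104 and 107 at 6 h, then 88.8 and 86.5 at 72 h, a change of −0.44 ± 0.09 at 72 h (adjusted p = 0.00014).

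The atypical genes fell on the TMM scale. PRKCZ read 599 and 605 CPM at 0 h, 493 and 501 at 6 h, then 322 and 339 at 72 h, and the 3 times did not overlap. Its log2 fold change was −0.28 ± 0.10 at 6 h and −0.87 ± 0.10 at 72 h (edgeR adjusted p = 0.022 and 1.7e-07). The 6 h call of PRKCZ was lost without 0 h replicate 2 (−0.27) or 6 h replicate 1 (−0.26), and with total counts (−0.14). The sign of the 6 h change turned over the gene body alone (0.11), with loess offsets (0.05) and with shared-peak factors (0.02). PRKCI had 113 and 112 CPM at 0 h and 119 and 104 at 6 h, which overlap (−0.01, adjusted p = 0.91), and then stood at 68.3 and 69.5 at 72 h, a change of −0.70 ± 0.09 against 0 h (adjusted p = 6.6e-07).

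Ranking does not depend on a common scaling factor. At 72 h the windows came in the order PRKCE, PRKCH (above 87.6% of all windows), PRKCA (82.7%), PRKCB (73.2%), PRKCD (72.3%), PRKCQ (64.0%), PRKCI (50.9%) and PRKCZ (40.2%). The neighbours PRKCB and PRKCD, with changes of −0.20 and −0.22, differed by less than the sum of their standard errors, as did PRKCI and PRKCZ (−0.70 and −0.87). PRKCI changed about as the median gene window did (−0.72). Across 16 alternatives the calls of PRKCE at each of the 3 contrasts, of PRKCA at 6 h and of PRKCH at 72 h kept their direction and stayed past the threshold. The falls of PRKCQ, PRKCI and PRKCZ at 72 h did not: with shared-peak factors these windows read 0.53, 0.27 and 0.10, and PRKCD read 0.75. With loess offsets PRKCZ read 0.26 and PRKCQ 0.25.

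**Figure D1:**
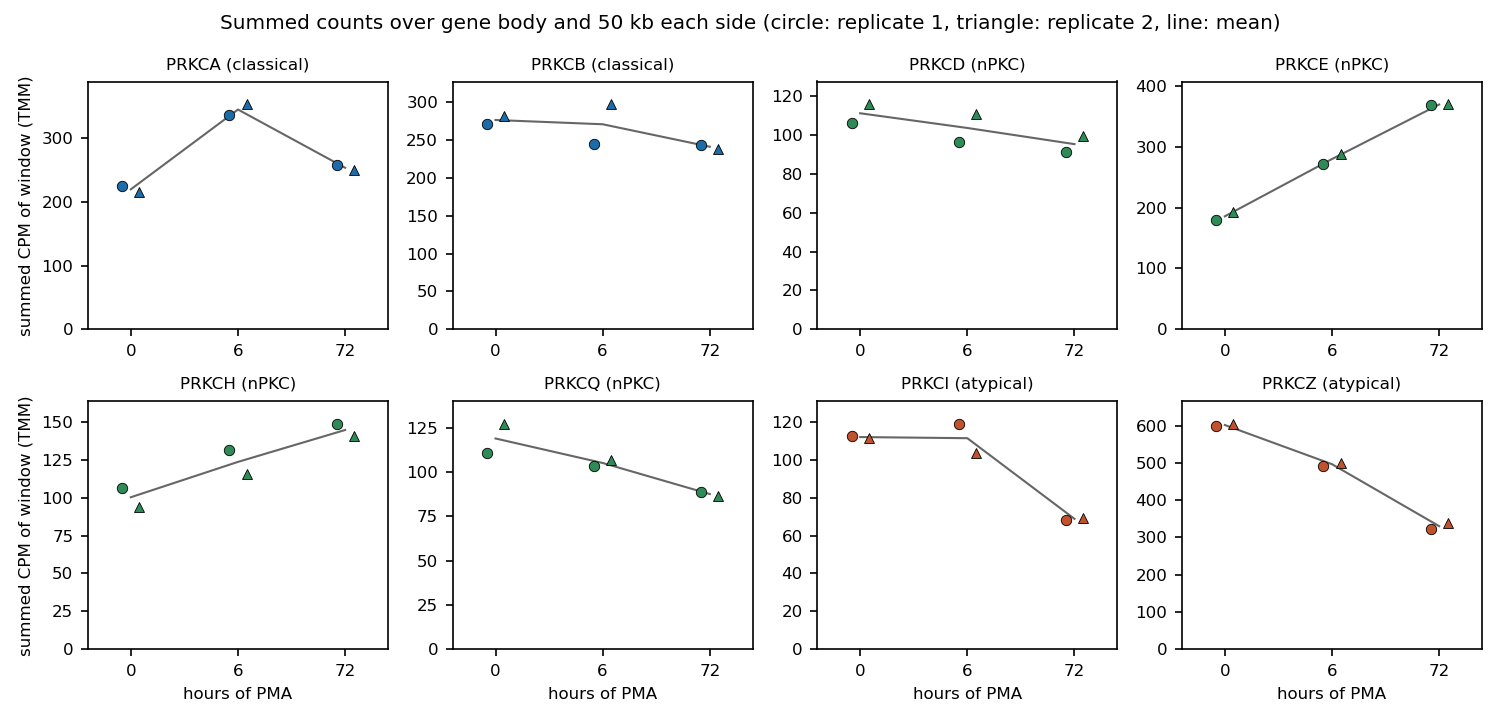
Summed CPM (TMM scale, vertical axis from 0) over the gene body and 50 kb on each side for each of the 8 genes at 0, 6 and 72 h of PMA, drawn evenly spaced. Circles are replicate 1, triangles replicate 2 and lines join the means; PRKCE rises from 179 and 192 to 369 and 371, PRKCA peaks at 6 h, and PRKCZ falls from 599 and 605 to 322 and 339.

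The classical and nPKC genes were then set against the atypical genes, which PMA does not engage through a C1 domain. Summed counts of the 6 classical and nPKC windows were 1.40 and 1.43 times those of the 2 atypical windows in the 0 h libraries, 1.94 and 2.11 times at 6 h, and 3.07 and 2.91 times at 72 h. This ratio is taken within a library, so it does not change with a factor applied to the whole library, and the 3 times did not overlap. With 2 libraries against 2, an exact permutation test cannot give a p below 0.333, so none was made. The classical genes alone went from 0.697 and 0.693 times the atypical genes to 0.949 and 1.08 at 6 h, then 1.28 and 1.20 at 72 h. The nPKC genes went from 0.707 and 0.739 to 0.986 and 1.03 and then to 1.79 and 1.71. On the TMM scale the classical sum was 496 and 497 CPM at 0 h, 581 and 652 at 6 h, then 502 and 489 at 72 h. The nPKC sum rose from 503 and 530 to 698 and 697 at 72 h. The atypical sum fell from 712 and 717 to 390 and 408, and PRKCZ made up most of it (599 and 605 at 0 h). On that scale the higher classical ratio at 72 h thus came with a fall of the atypical sum and little change of the classical sum.

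The ratio was also taken without the flanks. Of the 45 tested atypical sites 22 lay in a gene body or at a start, and 1 site lay in or at the body of PRKCI, the site at its start. Over bodies and starts the ratio was 2.78 and 2.85 at 0 h, 3.41 and 3.49 at 6 h, then 5.03 and 4.66 at 72 h, again without overlap. The strongest site of the whole set, 177 kb downstream of the first PRKCZ start and within 1000 bases of the end or start of SKI, fell from 107 and 99.8 CPM to 25.3 and 27.4 at 72 h. The part of neighbouring genes in the class difference was not tested beyond these values and the restricted counts given next.

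**Figure D2:**
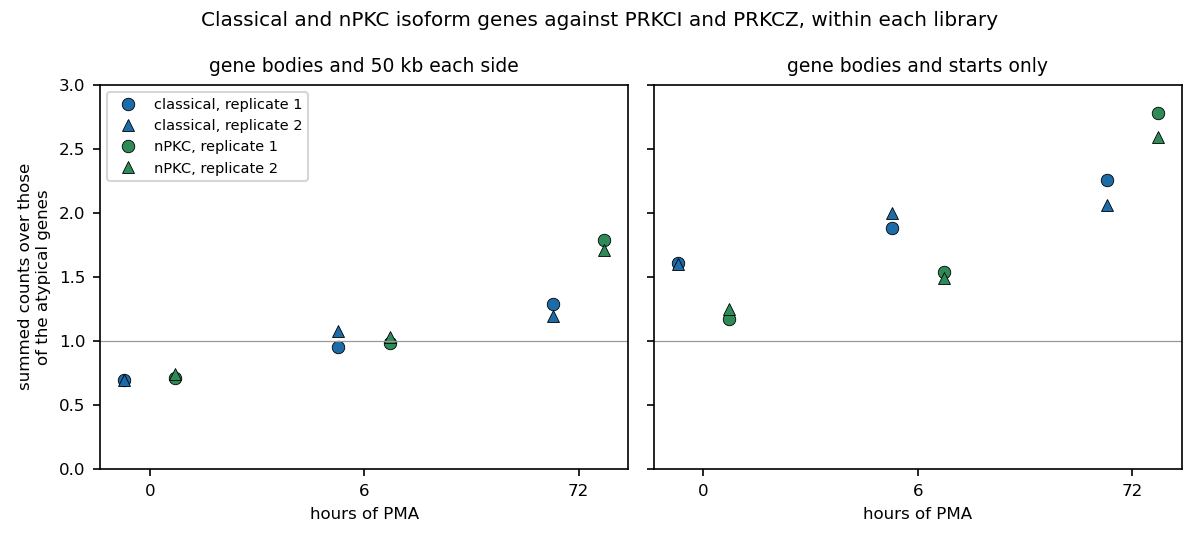
Summed counts of the classical (blue) and nPKC (green) genes divided by those of the atypical genes in the same library, over whole windows (left) and over gene bodies and starts (right), at 0, 6 and 72 h, drawn evenly spaced; circles are replicate 1 and triangles replicate 2. The nPKC ratio over windows runs from 0.707 and 0.739 at 0 h to 1.79 and 1.71 at 72 h.

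By single sites, 122 of the 371 tested sites were called higher at 6 h and 54 lower (edgeR adjusted p under 0.05, adjusted over all 177759 tested sites). Among all tested sites 23.4% were called higher and 16.8% lower, 40.1% in all, against 32.9% and 14.6% here. Of the 326 classical and nPKC sites 112 were higher and 47 lower, with a median log2 fold change of 0.48, and of the 45 atypical sites 10 were higher and 7 lower, with a median of −0.15. The median of all tested sites was 0.05. The difference of the class medians was 0.64, with 0.40 from the replicate 1 libraries and 0.69 from the replicate 2 libraries. It was 0.43 without sites inside other genes and 0.38 over gene bodies alone.

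At 72 h, 168 sites were called higher than at 0 h and 79 lower, while 67.4% of all tested sites were called, 38.2% higher and 29.2% lower. The classical and nPKC sites were higher in 157 cases and lower in 62 (median 0.78), and the atypical sites were higher in 11 and lower in 17 (median −0.28), beside a median of 0.29 over all tested sites. The difference of the class medians was 1.06 (0.99 and 1.27 by replicate number) and stayed above 0 under each scaling, but fell to 0.58 with loess offsets, to 0.79 without sites inside other genes and to 0.49 over gene bodies alone. Of called sites of the 8 genes 68.0% were higher at 72 h with TMM, 59.9% with RLE, 80.2% with total counts, 56.9% with loess offsets and 90.6% with shared-peak factors. Over all called sites the 72 h shares were 56.6%, 51.6%, 71.1%, 47.5% and 84.0%, in the same order of scalings. At 6 h the shares were 69.3%, 64.0%, 75.6%, 59.2% and 81.4% for the 8 genes. Over all called sites they were 58.2%, 48.9%, 67.3%, 46.8% and 77.3%.

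Between 6 h and 72 h, 75 sites were called higher at 72 h and 63 lower, while 42.9% of all tested sites were called, 22.1% higher and 20.9% lower. The count of 138 became 80 without either 72 h library. The share higher among called sites of the 8 genes was 54.3% under TMM and 51.9%, 81.0%, 51.2% and 96.0% under RLE, total counts, loess offsets and shared-peak factors. Over all called sites it was 51.4%, then 49.3%, 73.6%, 49.9% and 89.2%, in the same order. The difference of class medians was 0.56 under TMM and 0.02 under loess offsets. PRKCE (30 higher, 6 lower of 76) and PRKCH (18 higher, 4 lower of 55) had most of the later gains, while PRKCA had 5 higher and 19 lower of 78 and the atypical genes 3 higher and 16 lower of 45.

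The genes within a class differed from each other. At 72 h PRKCE had 52 of 76 sites called higher and 3 lower, with a median log2 fold change of 1.78, and PRKCH 31 of 55 higher and 5 lower (median 1.08). PRKCA had 35 of 78 higher and 17 lower (median 0.72) and PRKCB 22 of 70 higher and 19 lower (median 0.20). The remaining nPKC genes were mixed: PRKCD had 8 of 20 higher and 6 lower (median 0.12), and PRKCQ 9 of 27 higher and 12 lower (median 0.11). PRKCI had 3 of 8 higher and 2 lower, and PRKCZ 8 of 37 higher and 15 lower. Sites of a gene share their locus and are no replicates of one another.

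**Figure D3:**
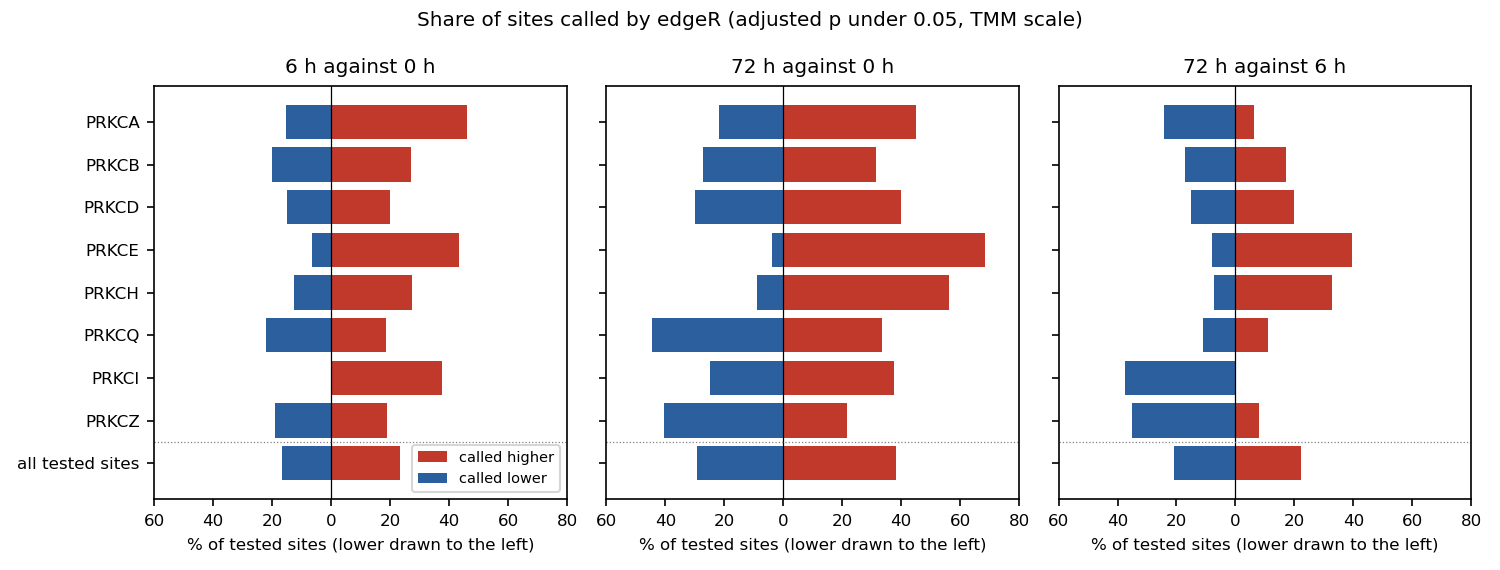
Percent of tested sites called higher (red, right) and lower (blue, left) for each gene and for all tested sites, in the 3 contrasts. At 72 h against 0 h PRKCE has 52 of its 76 tested sites called higher, while all tested sites have 38.2% higher and 29.2% lower.

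The counts differed by position within the window. At 72 h the 266 tested sites inside gene bodies had 132 higher and 45 lower (median 0.87), the 93 flanking sites 35 higher and 25 lower (median 0.00), and the 12 sites within 1000 bases of a start 1 higher and 9 lower (median −1.06). Inside the PRKCE body 50 of 68 sites were higher and 1 lower. PRKCH differed, since 11 of its 15 flanking sites were higher as well. At PRKCZ the body had 6 of 18 higher and 4 lower, while the flanks had 1 of 16 higher and 10 lower. The 11 sites at the end or start of another gene had 0 higher and 7 lower. Among all tested sites 38.2% were called higher and 29.2% lower at 72 h. Among start sites of protein-coding genes 7.01% were higher and 80.8% lower, so falls at starts were general on this scale.

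**Figure D4:**
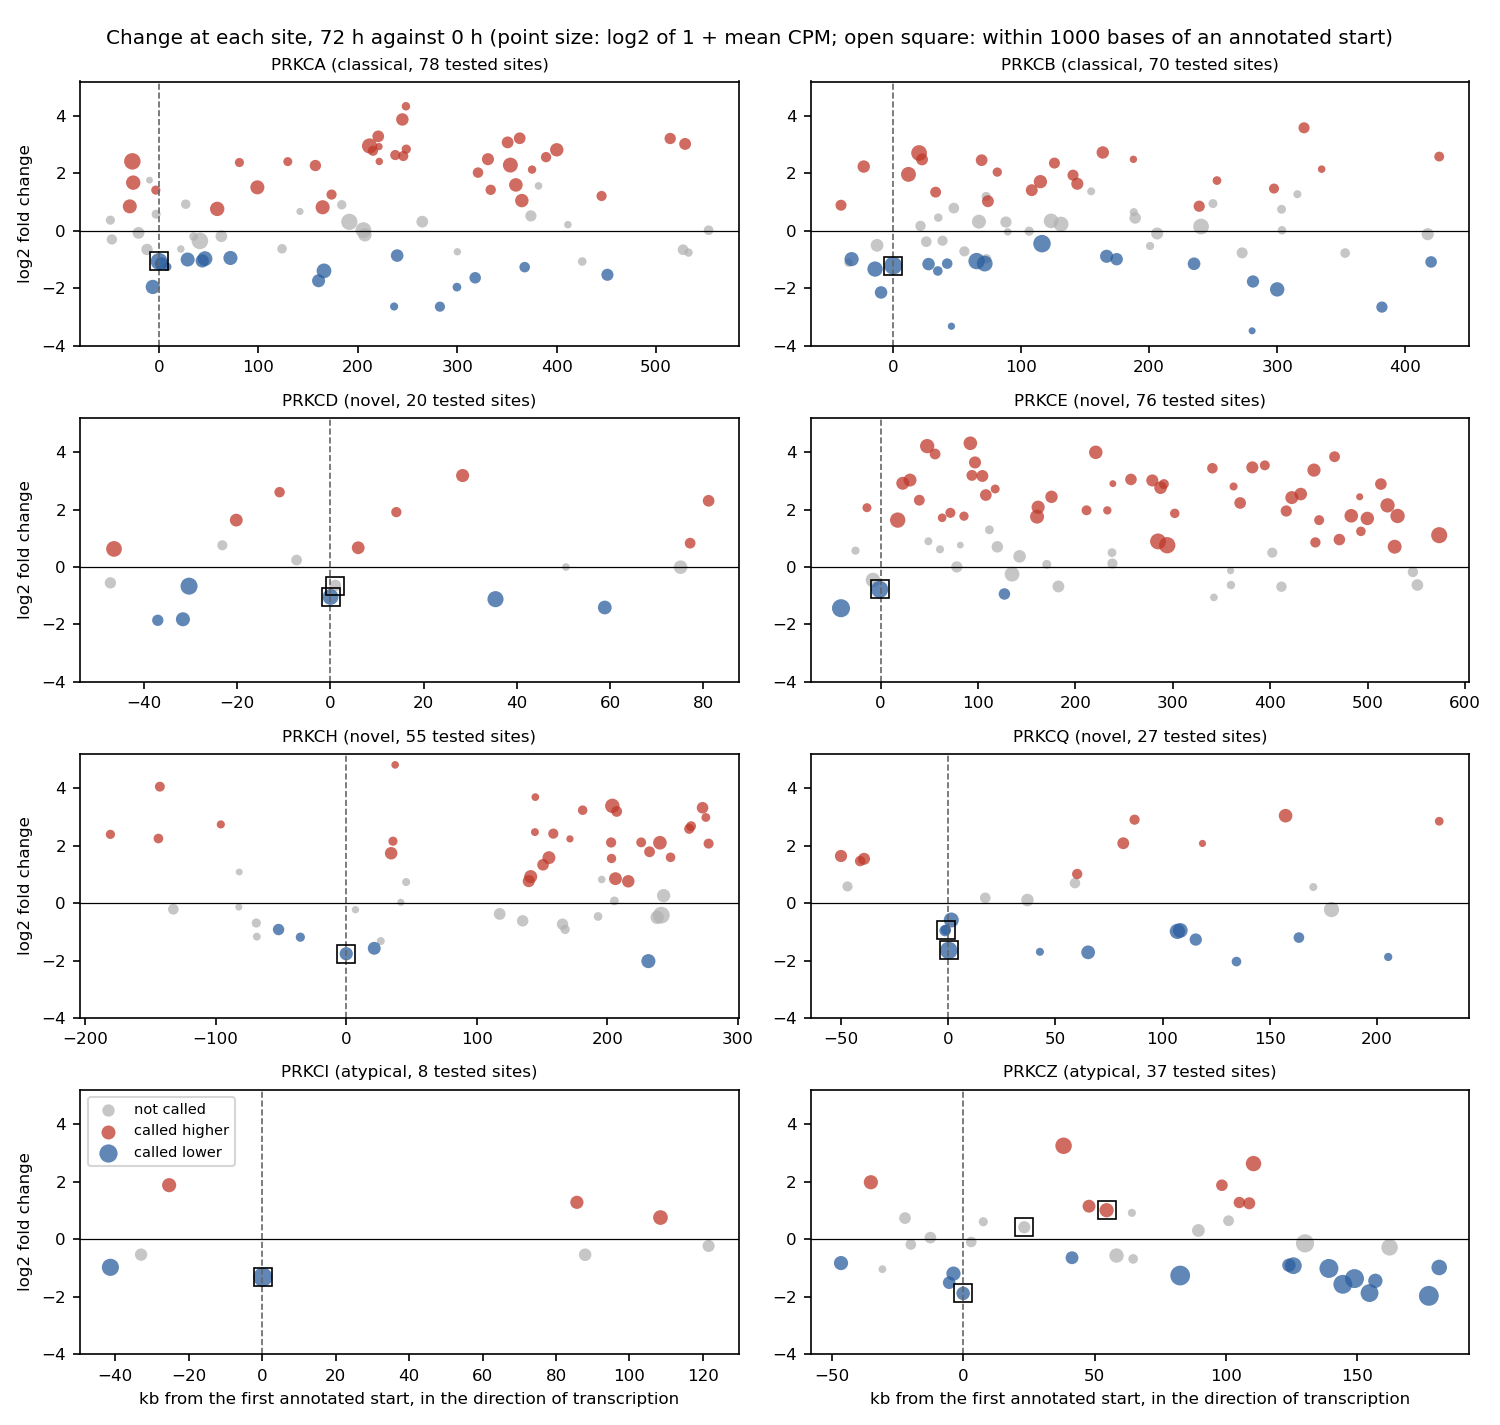
Log2 fold change at 72 h against 0 h of each tested site (vertical axis) against its distance in kb from the first annotated start, in the direction of transcription, for the 8 genes; red points are called higher, blue lower, grey not called, point size grows with mean CPM and open squares mark sites within 1000 bases of a start. Red points run along the PRKCE body, and most blue points of PRKCZ lie in its flanks.

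On the TMM scale most start sites, where promoters lie, were lower at 72 h. Every gene had an accessible site at a start listed by RefSeq. PRKCI had the strongest, at 68.2 and 64.7 CPM at 0 h, 55.6 and 50.6 at 6 h, then 26.2 and 27.0 at 72 h. The 72 h libraries of PRKCI were far below the others, with a log2 fold change of −1.32 ± 0.14 (edgeR adjusted p = 5.2e-08), though loess offsets gave 0.06. PRKCB followed at 36.6 and 44.3 CPM, then 25.6 and 28.7, then 18.2 and 16.8, and was called lower at 6 h (−0.57 ± 0.16) and 72 h (−1.21 ± 0.16). The 6 h call of PRKCB was lost without 0 h replicate 2 (−0.42) or 6 h replicate 1 (−0.49).

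PRKCQ, an nPKC isoform best known from T cells, had 31.5 and 37.2 CPM at its start at 0 h, 28.0 and 23 at 6 h, then 10.8 and 11.1 at 72 h. That was a fall of −1.65 ± 0.17 on the log2 scale at 72 h (edgeR adjusted p = 3.4e-08), and the 6 h call (−0.44, adjusted p = 0.040) was lost without 0 h replicate 2 (−0.31) or 6 h replicate 2 (−0.36). PRKCE had 24.4 and 27.8 CPM at its start at 0 h, 20.3 and 20.4 at 6 h, then 15.0 and 15.3 at 72 h (−0.78 ± 0.16 at 72 h). So on the TMM scale the PRKCE start fell while most sites in its body rose, though the start read 0.19 with shared-peak factors. PRKCA had 22.2 and 25.3, 19.9 and 22.8, and 12.8 and 9.88 CPM, with 0 h and 6 h overlapping and 72 h lower (−1.07 ± 0.18).

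PRKCD had 14.6 and 15.4 CPM at its start at 0 h, 12.3 and 16.1 at 6 h, then 6.75 and 7.80 at 72 h (−1.05 ± 0.20 at 72 h). PRKCH had a weak start site, at 6.76 and 7.55, 4.77 and 3.6, and 2.43 and 1.79 CPM (−0.81 ± 0.27 at 6 h and −1.76 ± 0.27 at 72 h). The 6 h call of PRKCH was lost without 0 h replicate 2 (−0.72) or 6 h replicate 2 (−0.64). Its listed start lies inside the gene interval, which begins upstream of it.

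These falls were not particular to PKC genes. Of the 11990 start sites of protein-coding genes 43.9% were called lower at 6 h (5.78% higher), and by 72 h 80.8% were lower (7.01% higher), the median being −1.29. Against that median PRKCE fell less (−0.78) and PRKCH (−1.76) and PRKCQ (−1.65) more. Between 6 h and 72 h 73.9% of start sites were called lower and 4.09% higher. With shared-peak factors the median start site read −0.32 at 72 h and 4 of the 12 start sites of the 8 genes were called lower in place of 9.

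PRKCZ, which encodes both the full-length atypical kinase and a shorter brain form from an inner promoter, was the exception. Its first listed start had 7.99 and 6.69 CPM at 0 h, 6.82 and 4.58 at 6 h, then 1.73 and 2.22 at 72 h, a log2 fold change of −1.88 ± 0.27 at 72 h. The start 23 kb further on had 2.08 and 3.11, 2.73 and 3.35, and 4.06 and 2.97 CPM, overlapping at all times. The innermost listed start, 55 kb in, had 5.07 and 4.54 CPM at 0 h, 4.09 and 5.88 at 6 h, then 9.03 and 10.3 at 72 h. Both 72 h libraries were above all others there, and the rise of 1.01 ± 0.24 (edgeR adjusted p = 0.00085) stayed past the threshold under each of the 5 scalings. Under TMM it was the single start site of the 8 genes called higher at 72 h, and with total counts and with shared-peak factors 2 were.

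The bases before 4 of these starts are shown because the starts moved apart: the 2 PRKCZ starts that went opposite ways, the strongest start (PRKCI) and the PRKCQ start, which fell by 1.65. Each is the 250 bases upstream of a start, 5′ to 3′ on the gene's strand, from the RefSeq table of GRCh38.p14, and capitals mark matches to a motif on either strand. The first is chr1:2050161-2050410 on the plus strand, the next chr1:2104466-2104715 on the plus strand, then chr3:170222174-170222423 on the plus strand and chr10:6580647-6580896 on the minus strand.
PRKCZ first start: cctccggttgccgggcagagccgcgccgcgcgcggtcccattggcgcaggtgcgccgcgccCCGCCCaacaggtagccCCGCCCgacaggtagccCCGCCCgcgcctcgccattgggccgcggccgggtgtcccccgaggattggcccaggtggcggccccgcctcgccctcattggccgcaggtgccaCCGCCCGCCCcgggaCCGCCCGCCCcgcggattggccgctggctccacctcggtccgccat
PRKCZ innermost start: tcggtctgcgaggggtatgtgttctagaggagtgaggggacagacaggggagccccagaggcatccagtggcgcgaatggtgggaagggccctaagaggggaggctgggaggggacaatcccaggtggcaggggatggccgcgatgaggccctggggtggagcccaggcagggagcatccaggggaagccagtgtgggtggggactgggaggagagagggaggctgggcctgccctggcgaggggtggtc
PRKCI: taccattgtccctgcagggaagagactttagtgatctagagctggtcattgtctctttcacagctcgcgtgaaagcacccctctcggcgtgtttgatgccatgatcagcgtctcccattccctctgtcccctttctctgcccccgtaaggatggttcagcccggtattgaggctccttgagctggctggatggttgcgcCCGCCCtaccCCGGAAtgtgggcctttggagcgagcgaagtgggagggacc
PRKCQ: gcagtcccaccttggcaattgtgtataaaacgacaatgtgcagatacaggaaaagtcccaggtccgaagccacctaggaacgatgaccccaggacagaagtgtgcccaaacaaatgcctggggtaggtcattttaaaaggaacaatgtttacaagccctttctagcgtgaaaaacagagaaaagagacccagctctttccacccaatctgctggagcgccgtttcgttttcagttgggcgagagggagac

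Motifs were searched on both strands by exact letters. The AP-1 motif was TGAGTCA and the cyclic AMP response element (CRE) was TGACGTCA. The GATA factor motif was AGATAA or, with its other first letter, TGATAA, and the ETS factor motif was CCGGAA. The RUNX factor motif was TGTGGTT, the GC box that binds SP1 was GGGCGG, and the EGR factor motif was GCGTGGGCG. The stretch before the first PRKCZ start is 79.6% G and C and holds 7 GC box matches, some of which overlap, while the stretch before the innermost start (68.0% G and C) holds no match to any of the 7 motifs. The PRKCI stretch (58.0% G and C) holds a GC box and an ETS match, and the PRKCQ stretch (49.2% G and C) holds none. A GC box occurs in 53.7% of 22183 upstream stretches of protein-coding genes, an ETS match in 18.0%, GATA in 11.2%, AP-1 in 3.44%, RUNX in 3.13%, CRE in 2.02% and EGR in 0.956%. None of the 13 stretches listed for the 8 genes held AP-1, GATA or EGR letters, and the stretch before the middle PRKCZ start held a CRE match. A match is a run of letters and says nothing of binding.

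**Figure D5:**
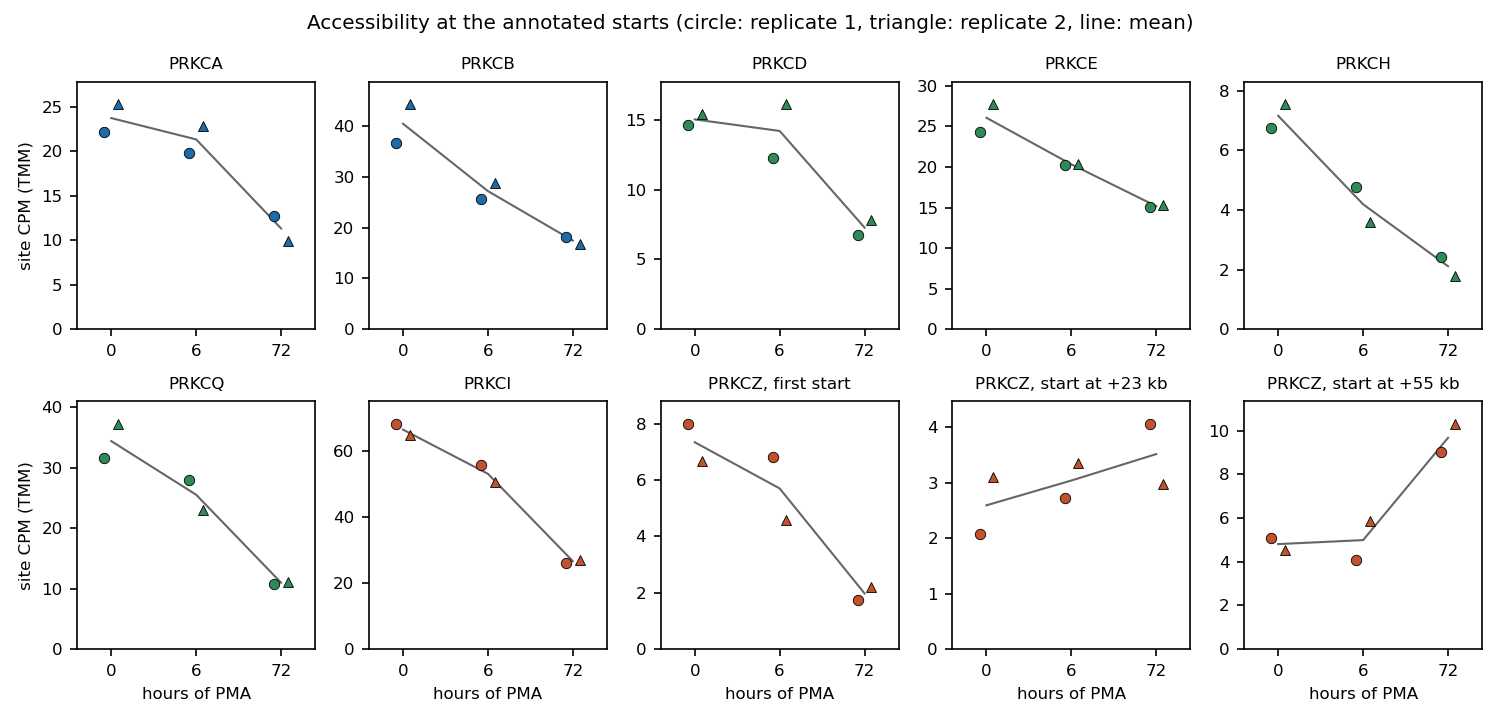
CPM (TMM scale, vertical axes from 0) of the site at each annotated start at 0, 6 and 72 h of PMA (evenly spaced), with 3 starts for PRKCZ; circles are replicate 1, triangles replicate 2, lines join the means. The 72 h points are lowest in 8 panels, while the PRKCZ start at 55 kb rises from 5.07 and 4.54 to 9.03 and 10.3.

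Single sites inside the classical genes opened early. The largest rises and falls given here and below were picked by these same values. Their fold changes and p-values therefore describe the sites picked and are no separate evidence of a change. At PRKCA the largest 6 h rise, among sites of at least median level whose libraries did not overlap, was at chr17:66514093-66514745, 212 kb into the gene. It had 1.49 and 0.812 CPM at 0 h, 17.8 and 17.7 at 6 h, then 8.25 and 9.13 at 72 h. The 6 h level was thus the highest, with log2 fold changes of 3.99 ± 0.28 at 6 h and 2.95 ± 0.28 at 72 h (edgeR adjusted p = 6.3e-10 and 1.2e-08). A site further into the gene, chr17:66547029-66547766, kept rising, with 0.650 and 0.334, 2.90 and 2.53, and 7.16 and 6.86 CPM (3.88 ± 0.36 at 72 h and 1.39 ± 0.28 above 6 h). Under the same limits on level and overlap, the largest fall of PRKCA was upstream of its start at chr17:66296072-66296717, from 12 and 13.4 CPM to 4.94 and 3.51 at 6 h, then 3.28 and 3.25 at 72 h.

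PRKCB showed early gains and losses side by side. The site at chr16:23856005-23856897, 20.5 kb into the gene, had 1.95 and 2.05 CPM at 0 h, 17.5 and 21.7 at 6 h, then 12.7 and 13.6 at 72 h (3.29 ± 0.24 and 2.71 ± 0.23). The site at chr16:23999484-24000150 rose late, with 1.17 and 0.860, 2.64 and 2.31, and 5.28 and 7.99 CPM (2.73 ± 0.33 at 72 h). Its 6 h rise (1.28) was lost without 0 h replicate 2 (1.06). Towards the 3′ end, chr16:24135489-24136369 fell from 18.3 and 9.84 CPM to 4.09 and 2.69 at 6 h, then 3.54 and 3.23 at 72 h (−2.10 ± 0.30 at 6 h), and chr16:24217377-24217914 from 4.94 and 3.87 to 1.79 and 0.949 and then 0.672 and 0.707 (−2.66 ± 0.37 at 72 h). The summed PRKCB window, which holds both kinds of site, did not pass the test under TMM.

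The nPKC PRKCE held the largest rise at 72 h among the sites named. Tested sites that did not meet the naming limits reached 4.82 at PRKCH and 4.34 at PRKCA. At chr2:45743337-45744188, 92.1 kb into the gene, levels were 0.975 and 0.382 CPM at 0 h, 1.96 and 1.9 at 6 h, then 12.4 and 13.3 at 72 h. Most of the rise in CPM came after 6 h, with 4.31 ± 0.33 against 0 h and 2.74 ± 0.28 against 6 h (edgeR adjusted p = 1.0e-09 and 4.6e-07). The site met the limit on level (a mean of 2.05 CPM) only through its 72 h libraries. Without 0 h replicate 2 its 6 h change of 1.57 became 0.98 and was not called. A neighbour at chr2:45699085-45699852 opened early, with 0.650 and 0.621, 6.39 and 9.01, and 11.1 and 12.5 CPM (3.62 ± 0.32 at 6 h and 4.21 ± 0.31 at 72 h). The largest 6 h fall under those limits, chr2:45833827-45834471, went from 3.96 and 4.11 to 1.96 and 1.08 CPM and stood at 2.25 and 2.78 at 72 h, a 6 h call (−1.52) lost without 6 h replicate 2 (−1.10).

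The strongest site in the PRKCE window lies at the gene SRBD1 and not in PRKCE. It fell from 44.3 and 41.6 CPM to 31.1 and 30.4 at 6 h, then 15.3 and 16.4 at 72 h (−1.44 ± 0.15 at 72 h). The rise of the PRKCE window thus held although its strongest site fell.

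PRKCH, PRKCD and PRKCQ each had a strong rise in the body. At PRKCH, chr14:61525089-61525902 went from 0.975 and 1.1 CPM to 8.95 and 9.36 at 6 h, then 10.3 and 11.6 at 72 h (3.13 ± 0.28 and 3.39 ± 0.27), a change made by 6 h. Just beyond the gene, chr14:61552739-61553487 fell from 11.7 and 11 CPM to 5.62 and 3.16 and then 2.79 and 2.78 (−2.02 ± 0.26 at 72 h). The strongest PRKCH site, chr14:61562645-61563388 in the flank, rose at 6 h alone: 12.7 and 17.2 CPM, then 26.4 and 26.6, then 12.1 and 10.4. Its change was 0.82 ± 0.19 at 6 h, −1.24 ± 0.18 from 6 h to 72 h and −0.42 ± 0.19 overall (adjusted p = 0.051), and the overall sign turned with total counts (0.08), loess offsets (0.16) and shared-peak factors (0.55).

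At PRKCD, an nPKC isoform active in many tissues, the site 28.4 kb into the gene at chr3:53189199-53189958 had 0.845 and 1.1 CPM at 0 h, 3.49 and 2.34 at 6 h, then 8.33 and 9.64 at 72 h. It rose at both steps (1.5 ± 0.35 at 6 h and 1.68 ± 0.27 from 6 h to 72 h). The 3 sites in the PRKCD body away from its starts were all called higher at 72 h, where 38.2% of all tested sites were.

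At PRKCQ, chr10:6422885-6423622 had 0.650 and 1.39 CPM at 0 h, 5.28 and 6.13 at 6 h, then 7.91 and 9.57 at 72 h (2.44 ± 0.33 and 3.04 ± 0.31). The site at chr10:6515002-6515674 fell by 6 h, with 12.2 and 8.41, then 2.90 and 2.94, then 3.16 and 3.09 CPM (−1.81 ± 0.27 at 6 h). So PRKCQ gained and lost sites by 6 h while its summed window changed little.

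The atypical genes had strong gains too. At PRKCZ, chr1:2088191-2088999, 38.2 kb from the first start and inside the gene, rose from 2.66 and 2.34 CPM to 20.1 and 20.2 at 6 h, then 19.9 and 27.7 at 72 h. Its log2 fold changes were 3.02 ± 0.23 and 3.26 ± 0.23 (edgeR adjusted p = 1.6e-09 and 3.3e-10). Named sites of PRKCB (3.29 at 6 h), PRKCH (3.39 at 72 h) and PRKCQ (3.04 at 72 h) were close to these. Those of PRKCA and PRKCE rose more, by 3.99 and 3.62 at 6 h and by 3.88 and 4.31 at 72 h. Those of PRKCQ at 6 h (2.44) and PRKCB at 72 h (2.73) rose less. At PRKCI, chr3:170196689-170197458, 25.4 kb upstream of the start, rose from 1.88 and 1.43 CPM to 13.4 and 9.17 at 6 h, then 5.87 and 6.25 at 72 h (2.76 ± 0.29 and 1.88 ± 0.28). Falls in the PRKCZ window at 72 h included the site near SKI (−1.97 ± 0.14), the first PRKCZ start (−1.88 ± 0.27) and a site in FAAP20 (−1.45 ± 0.24).

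Across the 34 named sites and both contrasts against 0 h, 892 of 952 values under alternatives kept their side of the threshold with no change of sign in a call. Another 32 lost the call, 24 gained it, and 4 changed sign where the value was called under TMM or under the alternative.

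The authors' peak lists gave a view that does not use counts. A deposited peak overlapped 110 and 128 of the 381 sites in the 0 h libraries, 129 and 205 at 6 h, then 294 and 279 at 72 h. Over all sites the numbers were 57420 and 64747, 59403 and 86692, and 128097 and 131534, so the gain with time was general, and the deeper 6 h library had more. PRKCE went from 15 and 19 of 79 sites to 20 and 42 and then 70 and 60. PRKCI had peaks at 5 and 6, then 7 and 8, then 8 and 8 of its 8 sites, and PRKCZ at 19 and 18, then 19 and 25, then 32 and 27 of 37. Peaks in both 72 h libraries and no other were found at 57 of the 381 sites, or 15.0%, beside 18.2% of all sites.

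The deposited table also gives each site a class name. Static was the name for 297 of the 381 sites in the authors' deposited table, upLate for 45, upEarly for 17, downEarly for 19 and downLate for 3. The names did not follow the fold changes beside them: the median for the 19 downEarly sites at 72 h was 2.20 in the authors' deposited table, and 14 of them were above 0. Over all sites in the authors' deposited table the 4 classes other than static all had medians of 2.3 at 72 h. The class names were therefore not used.

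The start sites of other genes in the pathway followed the run of genes. Of 56 genes in 7 lists, 44 had a start listed by RefSeq and 39 a tested site at a start. Of these 39, 3 were called higher and 16 lower at 6 h, where 5.78% and 43.9% of all start sites were. At 72 h 1 was higher and 35 lower (median −1.38), beside 7.01% and 80.8% of all start sites (median −1.29). With shared-peak factors the 72 h counts were 4 and 22, and over all 11990 start sites 1867 and 5207. Among the other proteins with a C1 domain, 2 of 10 rose at 6 h under TMM, where 5.78% of all start sites did. At 72 h 0 of 10 rose under TMM and RLE. With total counts, loess offsets and shared-peak factors 2 of 10 did, beside 1258, 1188 and 1867 of all 11990 start sites. The risers, named after their values were seen, were RASGRP2, an exchange factor for Rap proteins in platelets, with 17.3 and 18.4, then 27.8 and 29.9, then 16.7 and 16.4 CPM (0.70 ± 0.17 at 6 h), and RASGRP3 (0.52 ± 0.19). RASGRP4 fell most, by 2.29 at 72 h.

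Start sites of enzymes that make and remove diacylglycerol were mostly lower at 72 h. Of 4 phospholipases C with a start site all were called lower at 72 h, the most PLCG2, from 10.9 and 6.97 CPM to 2.81 and 1.14 at 6 h, then 0.388 and 0.566 at 72 h (−4.20 ± 0.39). Of 6 diacylglycerol kinases, which turn diacylglycerol into phosphatidic acid, 5 were lower and DGKG was higher, with 0.585 and 0.860, then 1.45 and 3.19, then 4.37 and 4.20 CPM (2.53 ± 0.39 at 72 h). DGKG was the single pathway start called higher at 72 h under TMM. The lower counts at 72 h were 7 of 8 for kinases, phosphatases and scaffolds that act on PKC (largest PDPK1, −1.61), 5 of 5 for PKC substrates (LMNB1, −1.82), 4 of 4 for partners of atypical PKC (PARD6G, −1.59) and 2 of 2 for related kinases (PKN2, −1.70), where 80.8% of all start sites were lower. With loess offsets these counts were 3 of 8, 4 of 5, 2 of 4 and 1 of 2, where 6313 of all 11990 start sites were lower. With shared-peak factors they were 3 of 8, 3 of 5, 4 of 4 and 2 of 2, where 5207 of all start sites were.

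For each PKC gene the window with the most similar course over the 6 libraries was looked up among 17698 protein-coding genes, by Euclidean distance of centred log2 CPM. The nearest were APH1B for PRKCA (distance 0.092), TPPP2 for PRKCB (0.045), GFM1 for PRKCD (0.079), GJB2 for PRKCE (0.068), PRTG for PRKCH (0.071), ZP1 for PRKCQ (0.040), SLC25A30 for PRKCI (0.035) and TMEM50B for PRKCZ (0.020). The GJB2 window went from 15.3 and 16.2 CPM to 22.4 and 23.4 and then 29.7 and 30.8, the same shape as PRKCE at a lower level. Genes that share a site with any PKC window were left out of this search.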

How the data were processed

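The authors deposited a table with a count per site and library, whole numbers that sum to a different total in each library and were taken as raw counts. The same deposited table holds the authors' log2 fold changes, adjusted p-values and class names. The peak lists deposited per library hold a score, a fold enrichment ratio and −log10 p-values and q-values, and only the peak positions were used. Per the submitters' processing notes the tools were Trim Galore 0.4.3, BWA 0.7.17, SAMtools 1.9, deepTools 3.0.1, MACS2, bedtools 2.26 and DESeq, with the build hg38. Their roles, any read shift and how the site list was made are not given in the sources used here. The column of adjusted p-values is the same for both contrasts of that table, so it was not used.

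Genes and starts came from RefSeq tables of GRCh38.p14, and all 8 symbols matched. Site starts were converted from a count that begins at 0. Counts of all sites were fitted with edgeR 4.0.16 in R 4.3.3 (TMM, default filter with a minimum of 10 counts, which removed 3376 of 181135 sites, 3 time groups, quasi-likelihood F test), and a site was called at a Benjamini-Hochberg adjusted p under 0.05. Standard errors are the log2 fold change over the square root of F. Window counts were sums over the sites of each protein-coding gene and were fitted with the same library sizes and factors. Window sums of neighbouring genes share sites. The fits were tested on simulated counts in which a small set of sites rose by known folds and the rest stayed constant. That check does not cover shifts of most sites or the choice of scale.

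A start site overlaps a listed start or is the nearest within 1000 bases, and for the pathway lists the start site with the highest mean CPM stands for a gene. Named sites of each gene were its start sites, its strongest site, and its largest called rises and falls at 6 h and 72 h among sites with a mean of at least the median CPM (2.05) and no overlap between the libraries compared. Named pathway genes have the largest rise or fall of their list at 72 h, except the C1 genes called higher at 6 h, which were chosen after their values were seen. The members and lists were chosen with earlier results of these data known. Replicate numbers were not taken to pair libraries: the correlations of same-numbered deviations were 0.131, 0.076 and 0.118, and no label says that a number marks a shared culture or day. Alternatives were other scalings, DESeq2 1.42.0, no filter, a stricter threshold, other windows, a replicate block and leaving out each library. A search of protein sequences was not run. The largest falls in the PRKCD window are not reported here.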

Additional observations from a re-analysis of the deposited data

Results flagged for a closer look

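The strongest site in the PRKCH window, chr14:61562645-61563388 in the flank 241 kb downstream of the listed start, moved one way at 6 h and the other way afterwards. Both 6 h libraries (26.4 and 26.6 CPM) were above the 0 h libraries (12.7 and 17.2), and both 72 h libraries (12.1 and 10.4) were below all of them. The change from 6 h to 72 h was −1.24 ± 0.18 on the log2 scale (edgeR's quasi-likelihood test, adjusted p = 1.8e-05, Benjamini-Hochberg over all tested sites), and this call held without any 1 library. The comparison of 72 h with 0 h did not pass the test (−0.42, adjusted p = 0.051), and its values under the alternatives ran from −0.63 to 0.55.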

How the results depend on the processing

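Sites called at 6 h numbered 176, and 113 under the stricter rule of an adjusted p below 0.01 with a log2 change beyond 1 either way. For 72 h against 6 h that rule left 66 of 138. No window passed it in any contrast (0 of 4 at 6 h, 0 of 7 at 72 h and 0 of 6 for 72 h against 6 h). Leaving out each library in turn gave 125 to 162 sites at 6 h, 208 to 261 at 72 h and 80 to 153 for 72 h against 6 h, and 2 to 5, 5 to 8 and 4 to 7 windows. It gave differences of class medians of 0.49 to 0.63 at 6 h and 1.06 to 1.18 at 72 h.

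The class difference at 6 h (0.64) was 0.38 over gene bodies alone and 0.43 without sites inside other genes, and at 72 h (1.06) it was 0.49, 0.79 and, with loess offsets, 0.58. The cause was not tested. Signs turned at 72 h with TMM factors taken only from sites peaked in every library for the strongest PRKCH site (0.55), the PRKCE start (0.19) and the strongest PRKCD site (0.30), and with loess offsets for the PRKCI start (0.064).

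With the replicate number as a block, 178 sites were called at 6 h, 251 at 72 h and 146 for 72 h against 6 h, and 5, 8 and 7 windows, with class differences of 0.64 and 1.09. Without 6 h replicate 2 the 6 h group rests on a depth of 12258890 counts, and 125 sites were called at 6 h. Scaling turned the direction of the 72 h change of the PRKCB, PRKCD, PRKCQ, PRKCI and PRKCZ windows, the last from −0.87 to 0.26 with loess offsets.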
